A study of Bos taurus with 8 samples.

Results

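The genes described here serve the lysosome, the vacuolar proton pump (V-ATPase) and autophagy. They are the rows of the deposited tables whose symbol is RNASEK, begins with ATP6V, ATP6AP, LAMP or CTS, or begins with ATG followed by a digit. This rule used symbols only and gave 58 of 21258 features, of which 13 are subunits of the V1 domain, 10 belong to the V0 domain (RNASEK included), 2 are V-ATPase accessory proteins, 4 are LAMP proteins, 12 are cathepsins and 17 are ATG proteins. RNA was sequenced from pools of 8 Holstein cattle embryos at the eight-cell stage. IVF embryos were made by in vitro fertilisation (3 libraries), and SCNT embryos were cloned by somatic cell nuclear transfer, in which a body cell's nucleus replaces that of an egg (3 libraries). KDM4E-SCNT embryos were cloned in the same way and overexpressed KDM4E, a histone demethylase that acts on methylated lysine 9 of histone H3 (2 libraries). The labels do not give the means of overexpression, the donor cells or the hour of collection. Nor do they say whether the pools within a group were made separately, so the p-values cover the spread among these libraries alone, part or all of which could be technical. The series design names SCNT without KDM4E as the control of both other groups, which asks how cloned embryos differ from fertilised ones and what KDM4E changes.

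Lysosomes are acidic organelles in which hydrolases such as the cathepsins digest material delivered by endocytosis or autophagy. The V-ATPase acidifies them: its V1 domain hydrolyses ATP in the cytosol and turns a rotor, and its V0 domain in the membrane carries the protons. In autophagy, ATG proteins conjugate LC3 and its relatives to a growing membrane that encloses cytoplasm and then fuses with a lysosome. In mammalian embryos autophagy is known to be active soon after fertilisation, when stored egg proteins are degraded, and bovine embryos at the eight-cell stage are in the main activation of their own genome, so both stored and newly made RNA are present.

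Values are FPKM, fragments per kilobase of transcript scaled to the library's total, so sequencing depth is unknown and levels of different genes can be set side by side. The libraries listed 10975 to 13050 features at 1 FPKM or more, and 37 to 42 of the 58 genes. No feature of the tables carries the symbol KDM4E, and a RefSeq row described as a lysine demethylase 4C-like gene (LOC524768, chr15:15664825-15668339) was at 108.87, 88.3 and 109.12 FPKM in the IVF libraries, 25.4, 29.9 and 33.9 in the SCNT libraries and 101.85 and 206.44 in the KDM4E-SCNT libraries. Whether that row is KDM4E was not settled, so it checks the labels only in part. Of 12 embryo and oocyte markers none was at 0 in any library, and their summed level was 28110 to 35080 FPKM in IVF, 4806 to 9996 in SCNT and 21340 to 25370 in KDM4E-SCNT. Of 15 fibroblast markers found, 1 to 5 were at 0 per library, and their summed level was 26.6 to 48.5 FPKM in IVF, 120.0 to 186 in SCNT, and 88.5 and 379 in the KDM4E-SCNT libraries. Summed cumulus and granulosa markers were at 113 to 173 FPKM in IVF, 20.4 to 28.2 in SCNT and 56.1 and 110.5 in KDM4E-SCNT, macrophage and blood markers at 17.4 to 27.1, 40.0 to 77.0 and 32.8 and 51.0, and sperm markers at 65.8 to 89.0, 23.4 to 41.6 and 47.0 and 52.8. The order of these last 2 sums rests on 1 gene each. Without the haemoglobin gene HBA the macrophage and blood sum was 12.5 to 21.2 FPKM in IVF, 4.28 to 8.50 in SCNT and 8.43 and 12.9 in KDM4E-SCNT. Without LDHC the sperm sum was 4.71 to 8.14 FPKM in IVF, 17.6 to 37.1 in SCNT and 7.62 and 7.58 in KDM4E-SCNT. In pooled RNA, fewer cells of a type cannot be told apart from less RNA per cell, and the part of these marker levels in the results below was not tested.

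Between fertilised and cloned embryos these genes were called in both directions, also within the same protein complex, at a rate not far from that of all features. A gene was tested where it reached 1 FPKM in at least 2 libraries, which 47 of the 58 did, and called at an adjusted p under 0.05 (limma on log2(FPKM + 1), Benjamini-Hochberg over all features tested). All differences between groups below are log2 differences of FPKM + 1, and SE is their standard error. For IVF minus SCNT, 58.5% of the 14839 features tested were called (34.9% higher in IVF and 23.6% lower). Of the 47 tested genes, 15 were higher in IVF, 16 were lower and 16 were not called, which is 66% called, and the libraries of both groups did not overlap at 33 of the 47, beside 64.4% of all features. The median log2 difference was -0.12 over these genes and 0.39 over all features tested. For KDM4E-SCNT minus SCNT, 32.6% of all features were called (21.6% higher and 11% lower), beside 7 higher and 7 lower of the 47 genes, with a median of -0.17 against 0.32 over all features and no overlap at 30 of the 47, beside 59.5% of all features. For KDM4E-SCNT minus IVF, 6.52% of all features were called, 5.9% higher in KDM4E-SCNT and 0.62% lower, beside 5 higher and 0 lower of the 47 genes, with no overlap at 19, beside 33.9% of all features. At an unadjusted p under 0.05, 11 were higher and 5 lower in that comparison. The 3 comparisons share libraries, so their calls are not independent of each other. ATP6V1D and CTSV were called in all 3, 15 genes in 2, 14 genes in 1, and 16 genes in none. Of the 47, 6 reached 1 FPKM in libraries of 1 group alone and so passed the filter only through it (ATP6V0D2, ATP6V1G3, CTSH and CTSS through SCNT, ATP6AP1 and CTSA through IVF), and their calls carry no weight of their own. Without these 6, the counts over 41 genes were 14 higher and 13 lower for IVF minus SCNT (65.9%), 7 and 5 for KDM4E-SCNT minus SCNT (29.3%), and 5 and 0 for KDM4E-SCNT minus IVF (12.2%). CTSK and ATG4B would also not have passed without the SCNT libraries, nor ATP6V1B1 and CTSD without the IVF libraries. They stay in these counts and in those by role, although the calls of CTSK and ATP6V1B1 carry no weight of their own either. The 58 genes together made up 0.175% to 0.207% of the summed FPKM of a library in IVF, 0.342% to 0.472% in SCNT, and 0.279% and 0.218% in KDM4E-SCNT. All SCNT shares exceeded all others, but this order rests on CTSV and ATP6V1G1, the most abundant of the genes in SCNT. Without these rows the share of SCNT replicate 2 would fall below that of IVF replicate 1 and of both KDM4E-SCNT libraries.

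**Figure D1:**
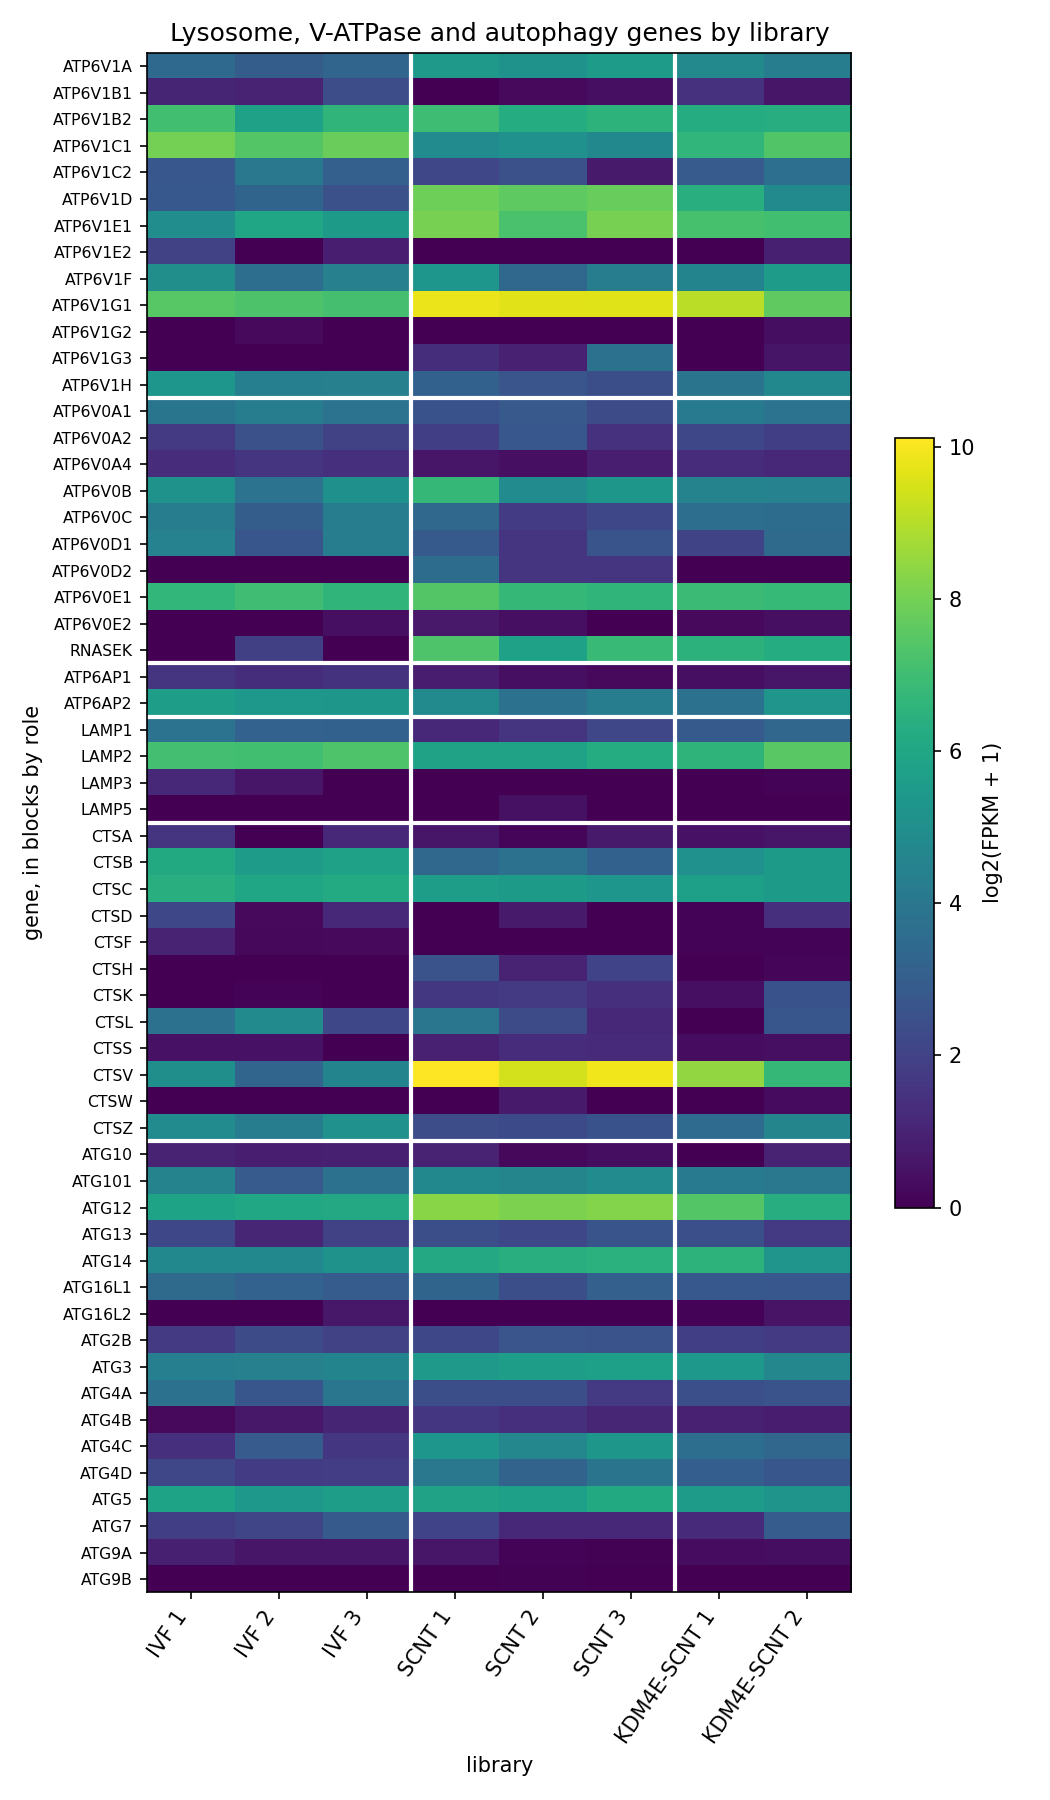
Heat map of the 58 genes (rows, in blocks by role) in the 8 libraries (columns), coloured by log2(FPKM + 1). CTSV and ATP6V1G1 were the brightest rows in the SCNT libraries, and RNASEK was near the bottom of the scale in all 3 IVF libraries.

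The split between higher and lower depends on scaling. With median-ratio size factors the median IVF minus SCNT difference of all features moved by -0.29 and the genes split into 8 higher and 21 lower, and for KDM4E-SCNT minus SCNT it moved by -0.31 and the split became 5 higher and 15 lower. With quantile normalization these shifts were -0.22 and -0.32, with splits of 10 higher and 19 lower, and 6 higher and 11 lower. The median-ratio split of all called features was 48.9% higher for IVF minus SCNT, beside 59.7% as deposited, and for KDM4E-SCNT minus SCNT it was 43.2% beside 66.2%. No called gene changed sign under any of the settings run. KDM4E-SCNT has 2 libraries, and without its replicate 2 the calls against SCNT fell from 7 higher and 7 lower to 3 and 1, while those over all features fell from 4844 to 1575. Only CTSB, ATP6V0A1, ATP6V1C1 and ATP6V1D, 4 of the 14, were called under every setting run.

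The subunits of the V1 domain differed in opposite directions. Of 11 tested, 9 were called between IVF and SCNT, 4 higher in IVF and 5 lower (4 without ATP6V1G3), with a median log2 difference of -0.12. That is 81.8% called, and 80% of 10 without ATP6V1G3, beside 58.5% of all features. ATP6V1D encodes the D subunit of the rotor that turns inside the V1 ring (Ensembl ENSBTAG00000016309.5, chr10:79584175-79599910, build UMD3.1, as are all positions here). ATP6V1D was at 5.89, 8.62 and 4.76 FPKM in the IVF libraries, 237, 193 and 219 in the SCNT libraries and 79.1 and 26.6 in the KDM4E-SCNT libraries. All SCNT libraries lay far above all IVF libraries, and both KDM4E-SCNT libraries lay between them, the second nearer to IVF. The log2 difference for ATP6V1D was -4.90 (SE 0.38, adjusted p 1.26e-06) for IVF minus SCNT, -2.20 (SE 0.42, adjusted p 0.00286) for KDM4E-SCNT minus SCNT and 2.69 (SE 0.42, adjusted p 0.00206) for KDM4E-SCNT minus IVF. Without KDM4E-SCNT replicate 2 the difference from SCNT was still called but was -1.43.

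ATP6V1C1 encodes the C subunit, which clamps V1 onto V0 and is released when the pump comes apart (chr14:63592784-63632839). Its order of groups was the opposite: ATP6V1C1 was at 257, 169.9 and 224 FPKM in the IVF libraries, 28.8, 33.4 and 25.6 in the SCNT libraries and 98.8 and 166 in the KDM4E-SCNT libraries. Each IVF library exceeded each KDM4E-SCNT library, which in turn exceeded each SCNT library. ATP6V1C1 was higher in IVF than in SCNT by 2.84 log2 units (SE 0.29, adjusted p 8.33e-06) and higher in KDM4E-SCNT than in SCNT by 2.10 (SE 0.33, adjusted p 0.00123), and its KDM4E-SCNT minus IVF difference was -0.74 (SE 0.33, adjusted p 0.234). Between these subunits of 1 complex the FPKM ratio of ATP6V1C1 to ATP6V1D was therefore 43.6, 19.7 and 47.1 in the IVF libraries, 0.122, 0.174 and 0.117 in the SCNT libraries, and 1.25 and 6.25 in the KDM4E-SCNT libraries. This pair was chosen for its values and its ratio is a description.

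ATP6V1G1, a subunit of the outer stalks that hold the V1 ring still, had the highest mean level of the V-ATPase genes over all libraries (chr8:105493587-105502576). ATP6V1G1 was at 176, 157 and 139 FPKM in the IVF libraries, 902, 800.2 and 785 in the SCNT libraries and 537 and 201 in the KDM4E-SCNT libraries. The 3 groups did not overlap, and the 2 KDM4E-SCNT libraries were far apart. It was lower in IVF than in SCNT, with a log2 difference of -2.39 (SE 0.32, adjusted p 5.85e-05), and lower in KDM4E-SCNT than in SCNT, -1.33 (SE 0.36, adjusted p 0.015). The second call was lost with quantile normalization, where the difference was -0.86, and without KDM4E-SCNT replicate 2, where it was -0.62 (adjusted p 0.00192 to 0.183 over 14 settings). Without KDM4E-SCNT replicate 1 it was -2.04. ATP6V1E1, its partner in the stalks (chr5:109564503-109578159), was at 30.5, 60.0 and 45.1 FPKM in the IVF libraries, 262, 146 and 260.0 in the SCNT libraries and 143 and 132 in the KDM4E-SCNT libraries. The KDM4E-SCNT libraries were above all IVF libraries and below all SCNT libraries. ATP6V1E1 was lower in IVF than in SCNT by a log2 difference of -2.28 (SE 0.32, adjusted p 8.33e-05), was higher in KDM4E-SCNT than in IVF by 1.63 (SE 0.36, adjusted p 0.0157) and was not called against SCNT, -0.64 (SE 0.36, adjusted p 0.186). The call against IVF was lost without IVF replicate 1 or without KDM4E-SCNT replicate 1 (adjusted p 0.00945 to 0.136 over 14 settings).

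ATP6V1A is the catalytic subunit, where ATP is hydrolysed (chr1:58880058-58940217). It was at 9.93, 6.89 and 8.80 FPKM in the IVF libraries, 42.2, 35.4 and 47.8 in the SCNT libraries and 26.1 and 18.1 in the KDM4E-SCNT libraries. The groups did not overlap, with SCNT highest. ATP6V1A was lower in IVF than in SCNT, -2.17 log2 units (SE 0.30, adjusted p 6.65e-05), higher in KDM4E-SCNT than in IVF, 1.27 (SE 0.33, adjusted p 0.0396), and not called between KDM4E-SCNT and SCNT, -0.90 (SE 0.33, adjusted p 0.0545). Its call against IVF was lost in 9 of 14 settings, among them every fit without an IVF library and that without KDM4E-SCNT replicate 1 (adjusted p 0.0267 to 0.352 over 14 settings). The regulatory subunit ATP6V1H, which holds back ATP hydrolysis when V1 is detached, went the way of ATP6V1C1 (chr14:23511301-23558678). ATP6V1H was at 38.3, 19.9 and 20.1 FPKM in the IVF libraries, 7.82, 5.43 and 4.37 in the SCNT libraries and 13.9 and 25.6 in the KDM4E-SCNT libraries. It was higher than SCNT in IVF, 1.94 log2 units (SE 0.37, adjusted p 0.000695), and in KDM4E-SCNT, 1.57 (SE 0.41, adjusted p 0.013), the latter lost without KDM4E-SCNT replicate 2 (adjusted p 0.00858 to 0.147 over 14 settings).

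The remaining V1 genes are those with tissue-limited paralogues and those that were not called. ATP6V1B2, the noncatalytic partner of ATP6V1A in the ring, ranged from 54.0 to 130.55 FPKM over all 8 libraries and had a log2 difference of -0.12 for IVF minus SCNT (95% interval -0.85 to 0.60), a sign that turned with quantile normalization and with 1 total per library. ATP6V1F, the rotor partner of ATP6V1D, ranged from 9.33 to 46.5 FPKM and differed by 0.03 (95% interval -1.03 to 1.09), a sign that turned with quantile normalization and with median-ratio size factors. The interval for ATP6V1F does not reach the difference seen for ATP6V1D. The paralogues ATP6V1B1 and ATP6V1C2 were called higher in IVF at low levels, up to 4.25 and 15.8 FPKM, and each call was lost in 4 settings (adjusted p 0.0177 to 0.133 over 14 settings and 0.0058 to 0.0947 over 15 settings). Without IVF replicate 3 the difference of ATP6V1B1 was 0.80, and without SCNT replicate 3 that of ATP6V1C2 was 0.99. ATP6V1B1 was also lost without SCNT replicate 1 or 2, and ATP6V1C2 without IVF replicate 2. ATP6V1B1 would not have passed the filter without the IVF libraries. ATP6V1G3 was listed at 0 in all 3 IVF libraries, at 1.48, 0.91 and 12.8 FPKM in SCNT and at 0 and 0.5 in KDM4E-SCNT. ATP6V1E2 and ATP6V1G2 did not pass the filter. Over the 8 main V1 subunits, the highest was ATP6V1C1 in every IVF library and ATP6V1G1 in every SCNT and KDM4E-SCNT library, and the lowest was ATP6V1H in every SCNT library and ATP6V1D or ATP6V1A in IVF. The highest of the 8 exceeded the lowest 24.7 to 47.1 times in IVF, 115 to 180 times in SCNT, and 38.6 and 11.1 times in KDM4E-SCNT.

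**Figure D2:**
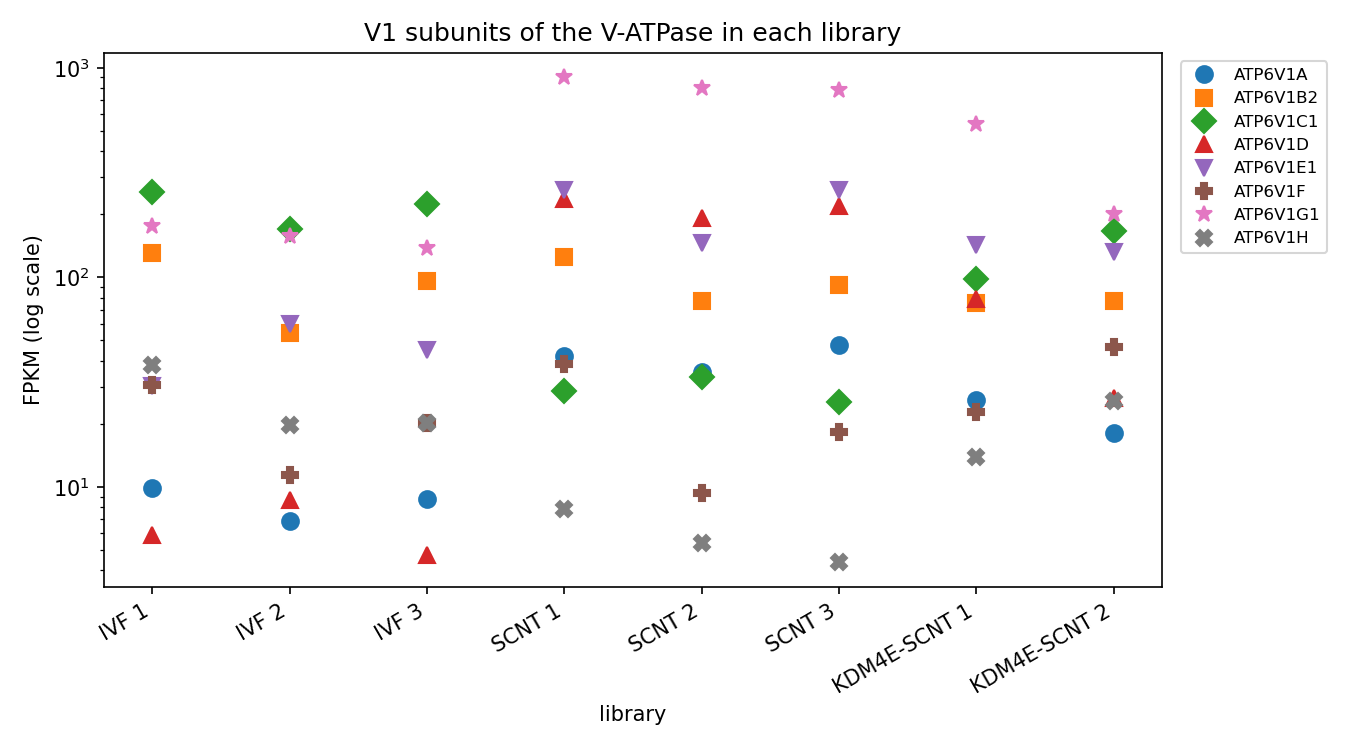
FPKM (log axis) of the 8 main V1 subunits of the V-ATPase in each of the 8 libraries, 1 marker shape and colour per gene. ATP6V1C1 is at the top and ATP6V1D near the bottom in IVF, and ATP6V1D lies above ATP6V1C1 in all 3 SCNT libraries.

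In the V0 domain RNASEK was called lower and ATP6V0A1 higher in IVF than in SCNT, while the most abundant subunit was not called. Of 9 tested rows, 3 were higher in IVF than in SCNT, 2 were lower (1 without ATP6V0D2) and 4 were not called. That is 55.6% called, and 50% of 8 without ATP6V0D2, beside 58.5% of all features. RNASEK, a small membrane protein that binds V0 and is needed for uptake into endosomes, had the largest IVF minus SCNT difference of the tested genes (chr19:27436503-27438226). RNASEK was at 0, 2.78 and 0 FPKM in the IVF libraries, 159, 54.1 and 110.5 in the SCNT libraries and 90.0 and 75.2 in the KDM4E-SCNT libraries. It was thus listed at 0 in IVF replicates 1 and 3, and at more than 50 FPKM in each of the 5 cloned libraries. The log2 difference was -5.99 (SE 0.51, adjusted p 2.46e-06) for IVF minus SCNT and 5.74 (SE 0.57, adjusted p 0.000123) for KDM4E-SCNT minus IVF. Both calls held under every setting run, and with a pseudocount of 0.1 the 2 values were -8.33 and 8.07, since most IVF values are 0. KDM4E-SCNT and SCNT overlapped, with a difference of -0.25 log2 units (SE 0.57, adjusted p 0.758) and a 95% interval of -1.50 to 0.99. A 0 in such files can be a failed estimate, and no count behind it is given.

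ATP6V0E1, a small subunit of V0 (chr20:4641618-4671634), had the highest mean of the V0 genes and was at 102, 130.0 and 98.3 FPKM in the IVF libraries, 167, 106 and 98.0 in the SCNT libraries and 117 and 108 in the KDM4E-SCNT libraries. The groups overlapped throughout, and the difference was -0.14 log2 units (SE 0.28, adjusted p 0.686) for IVF minus SCNT (95% interval -0.75 to 0.47), with a sign that turned under quantile normalization and 1 total per library. ATP6V0A1, the a subunit that anchors V0 to the stalks and lines the path of the protons (chr19:43201174-43251818), was at 14.2, 17.9 and 13.4 FPKM in the IVF libraries, 4.85, 6.08 and 4.06 in the SCNT libraries and 16.8 and 13.3 in the KDM4E-SCNT libraries. The SCNT libraries were below all others, and IVF and KDM4E-SCNT overlapped. ATP6V0A1 was higher than SCNT in IVF, 1.43 log2 units (SE 0.31, adjusted p 0.00159), and in KDM4E-SCNT, 1.43 (SE 0.34, adjusted p 0.00859), and both calls held under every setting run.

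The d subunit couples the rotor to the ring of c subunits and has 2 forms, the general ATP6V0D1 (chr18:35165958-35205066) and ATP6V0D2 (chr14:78908052-78964199), which is known from osteoclasts and kidney. ATP6V0D1 was at 21.1, 5.61 and 18.2 FPKM in the IVF libraries, 6.35, 1.84 and 5.26 in the SCNT libraries and 3.24 and 10.3 in the KDM4E-SCNT libraries. It was called higher in IVF than in SCNT, 1.47 log2 units (SE 0.54, adjusted p 0.0314), although IVF replicate 2 lay inside the SCNT range, and the call was lost in 6 settings, among them those without IVF replicate 1, IVF replicate 3 or SCNT replicate 2 (adjusted p 0.00574 to 0.132 over 15 settings). ATP6V0D2 was listed at 0 in all IVF and KDM4E-SCNT libraries and was at 10.8, 1.89 and 1.94 FPKM in SCNT. Of the summed FPKM of both forms, ATP6V0D2 made up 63%, 50.7% and 26.9% in the SCNT libraries. HBA, a haemoglobin marker, was higher in every SCNT than in every IVF library, at 68.9, 50.4 and 35.7 FPKM against 5.58, 4.85 and 7.64, and was at 24.4 and 38.1 in KDM4E-SCNT. Of the macrophage and blood markers tested, 3 (CD14, CD3E and PTPRC) were higher in IVF than in SCNT and HBA was lower, while CSF1R and LYZ were not called. CD14 and PTPRC reached 1 FPKM in IVF libraries alone and passed the filter only through them. Their calls carry no weight of their own. HBA was chosen after its values were seen. Any part of blood or macrophage RNA in the ATP6V0D2 values was not tested. CD163 and ITGAM were listed at 0 in all IVF and SCNT libraries.

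The other V0 genes were ATP6V0C and ATP6V0B, which form the proton-carrying ring, ATP6V0A2 and ATP6V0A4, alternative a subunits, and ATP6V0E2, which did not pass the filter. ATP6V0C was called higher in IVF than in SCNT, 1.36 log2 units (SE 0.46, adjusted p 0.0222), with overlapping libraries, and the call was lost in 7 settings, among them each of IVF replicates 1 and 3 and SCNT replicates 2 and 3 left out (adjusted p 0.00542 to 0.0936 over 15 settings). ATP6V0B, ATP6V0A2 and ATP6V0A4 ranged from 13.3 to 104.74, 1.69 to 5.72 and 0.34 to 1.92 FPKM and were called in no comparison. Summed over the 22 V0 and V1 subunits without RNASEK, the level was 882, 685 and 757 FPKM in the IVF libraries, 1954, 1459 and 1620 in the SCNT libraries and 1181 and 874 in the KDM4E-SCNT libraries. All 3 SCNT sums were above all others, and most of that sum came from the V1 domain, at 1305 to 1647 FPKM in SCNT and 505 to 689 in IVF. ATP6V1G1 alone was at 902, 800.2 and 785 FPKM in the SCNT libraries and 176, 157 and 139 in the IVF libraries. The order of the sums rests on that gene, and without it the SCNT sums would not all lie above the others.

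Of the 2 accessory proteins of the pump, ATP6AP2 was called higher in IVF than in SCNT. ATP6AP1 passed the filter only through IVF, so its call carries no weight of its own. ATP6AP2, also known as the prorenin receptor, helps assemble V0 (chrX:108396797-108424821) and was at 50.0, 41.6 and 40.3 FPKM in the IVF libraries, 27.9, 13.1 and 18.1 in the SCNT libraries and 12.9 and 37.5 in the KDM4E-SCNT libraries. IVF was above SCNT without overlap, and the 2 KDM4E-SCNT libraries lay on either side of all SCNT libraries. Its log2 difference was 1.18 (SE 0.39, adjusted p 0.0213) for IVF minus SCNT and 0.22 (SE 0.44, adjusted p 0.719) for KDM4E-SCNT minus SCNT. The IVF call of ATP6AP2 was lost in 4 settings (adjusted p 0.00781 to 0.108 over 15 settings), with median-ratio size factors, where it differed by 0.75, and when IVF replicate 1 or either of the SCNT replicates 2 and 3 was left out. The ATP6AP2 row spans 28025 bp in the files, 1.53 times the RefSeq gene of assembly ARS-UCD2.0. ATP6AP1 was at 1.92, 1.48 and 1.78 FPKM in the IVF libraries, 0.76, 0.33 and 0.19 in the SCNT libraries and 0.33 and 0.53 in the KDM4E-SCNT libraries.

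LAMP1 and LAMP2, the heavily glycosylated proteins that line the lysosomal membrane, were higher in IVF and in KDM4E-SCNT than in SCNT. LAMP2, which also serves in the fusion of autophagosomes and in chaperone-mediated autophagy (chrX:4846778-4879916), was at 136, 131 and 159 FPKM in the IVF libraries, 56.3, 55.3 and 75.0 in the SCNT libraries and 94.2 and 183 in the KDM4E-SCNT libraries. LAMP1 (chr12:90609710-90621680) was at 13.4, 8.07 and 7.91 FPKM in the IVF libraries, 1.17, 1.92 and 3.44 in the SCNT libraries and 6.29 and 9.20 in the KDM4E-SCNT libraries. For both genes the SCNT libraries were lowest, with no overlap with either other group, and the IVF and KDM4E-SCNT ranges overlapped. For IVF minus SCNT the log2 difference was 1.19 (SE 0.30, adjusted p 0.00433) for LAMP2 and 1.79 (SE 0.37, adjusted p 0.00132) for LAMP1, and both calls held under every setting run, although the difference for LAMP2 was 0.75 with median-ratio size factors. For KDM4E-SCNT minus SCNT it was 1.08 log2 units (SE 0.33, adjusted p 0.0262) for LAMP2 and 1.50 (SE 0.42, adjusted p 0.0164) for LAMP1. Each of these was lost in 4 settings (adjusted p 0.00861 to 0.264 over 14 settings for LAMP2 and 0.0116 to 0.133 over 14 settings for LAMP1), including median-ratio size factors and the fits without SCNT replicate 1 or KDM4E-SCNT replicate 2. LAMP2 was also lost without SCNT replicate 2, and LAMP1 with quantile normalization. LAMP2 differed by 0.61 with median-ratio size factors and by the same without KDM4E-SCNT replicate 2. LAMP3, the form of activated dendritic cells, and LAMP5, the form of neurons, did not pass the filter.

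Of the tested genes, 4 are on the X chromosome: ATP6AP1, ATP6AP2, LAMP2 and ATG4A. ATP6AP2, LAMP2 and ATG4A were called higher in IVF than in SCNT, and ATP6AP1 reached 1 FPKM in IVF alone, beside 26.7% higher and 34.2% lower of the 746 X-linked features tested. In KDM4E-SCNT, LAMP2 was called higher than in SCNT and the other 3 were not called, beside 18.2% higher and 14.1% lower of all X-linked features. This grouping was made after the values were seen and is a description.

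The cathepsins were called in both directions, and the most abundant of them, CTSV, was highest in the cloned embryos. Of 10 tested cathepsins, 3 were higher in IVF than in SCNT and 3 were lower (2 without CTSH), with a median log2 difference of 0.54, and for KDM4E-SCNT minus SCNT 2 were higher and 2 lower (1 without CTSH), with a median of -0.03. The shares called were 60% and 40%, beside 58.5% and 32.6% of all features. Without CTSH, CTSA and CTSS, which each passed the filter through 1 group alone, they were 71.4% and 42.9% of 7 cathepsins. CTSV, a cysteine endopeptidase close to cathepsin L, had the highest SCNT mean of the 58 genes (chr8:84976255-84981470). The row is described in the files as cathepsin L1 of cattle, and CTSL lies on the same chromosome (chr8:82365269-82371037), so reads may be shared between these related genes and the name is uncertain. CTSV was at 32.0, 8.93 and 22.9 FPKM in the IVF libraries, 1109.9, 689 and 962 in the SCNT libraries and 358 and 105 in the KDM4E-SCNT libraries. The 3 groups did not overlap, and KDM4E-SCNT lay between SCNT and IVF. Its log2 difference was -5.51 (SE 0.48, adjusted p 2.68e-06) for IVF minus SCNT, -2.21 (SE 0.54, adjusted p 0.00889) for KDM4E-SCNT minus SCNT and 3.30 (SE 0.54, adjusted p 0.00266) for KDM4E-SCNT minus IVF. The difference from SCNT was -1.33 and not called without KDM4E-SCNT replicate 2 (adjusted p 0.00242 to 0.138 over 14 settings), and the difference from IVF was not called without KDM4E-SCNT replicate 1 (adjusted p 0.000362 to 0.0587 over 14 settings). The row named CTSL was at 12.6, 27.4 and 3.56 FPKM in the IVF libraries, 14.7, 4.12 and 1.19 in the SCNT libraries and 0 and 5.52 in the KDM4E-SCNT libraries, overlapped between all groups and was called in none of the comparisons.

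CTSB, an abundant lysosomal cysteine protease that also trims peptides from their ends (chr8:7414945-7423429), had the opposite order. It was at 69.6, 46.7 and 54.6 FPKM in the IVF libraries, 9.58, 12.8 and 7.92 in the SCNT libraries and 33.5 and 45.2 in the KDM4E-SCNT libraries. SCNT was lowest without overlap, and both KDM4E-SCNT libraries were under the lowest IVF library. CTSB was higher than SCNT in IVF, 2.39 log2 units (SE 0.30, adjusted p 3.73e-05), and in KDM4E-SCNT, 1.87 (SE 0.34, adjusted p 0.00222), and both calls held under every setting run. The CTSB to CTSV ratio in FPKM was 2.17, 5.23 and 2.38 in IVF, 0.00863, 0.0186 and 0.00823 in SCNT and 0.0936 and 0.429 in KDM4E-SCNT, a pair again chosen for its values.

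CTSZ, a carboxypeptidase (chr13:57889707-57899205), was at 28.5, 17.9 and 33.8 FPKM in the IVF libraries, 4.25, 3.82 and 4.81 in the SCNT libraries and 10.5 and 23.3 in the KDM4E-SCNT libraries. SCNT was again lowest, and KDM4E-SCNT replicate 2 lay inside the IVF range. CTSZ was higher than SCNT in IVF, 2.35 log2 units (SE 0.36, adjusted p 0.000155), and in KDM4E-SCNT, 1.66 (SE 0.41, adjusted p 0.00913), the latter lost without KDM4E-SCNT replicate 2 (adjusted p 0.00588 to 0.127 over 14 settings). CTSC, which activates serine proteases of immune cells, ranged from 39.4 to 82.5 FPKM over all libraries. It was called higher in IVF than in SCNT, 0.69 log2 units (SE 0.26, adjusted p 0.0395), but in 7 settings it was not, among them those without IVF replicate 1, IVF replicate 3 or any of the SCNT replicates, and with median-ratio size factors the difference was 0.25 (adjusted p 0.0116 to 0.44 over 15 settings).

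The aminopeptidase CTSH and the bone-matrix protease CTSK were low and were highest outside IVF. CTSH was listed at 0 in all IVF libraries and was at 5.08, 1.02 and 3.05 FPKM in SCNT and 0 and 0.1 in KDM4E-SCNT. CTSK was at 0, 0.08 and 0 FPKM in the IVF libraries, 2.14, 2.33 and 1.63 in the SCNT libraries and 0.33 and 4.90 in the KDM4E-SCNT libraries. It was called lower in IVF than in SCNT, -1.56 log2 units (SE 0.48, adjusted p 0.0138), a difference of -4.12 with a pseudocount of 0.1, and the 2 KDM4E-SCNT libraries lay on either side of all SCNT libraries. CTSK would not have passed the filter without the SCNT libraries, so this call carries no weight of its own. CTSK is also made by fibroblasts, and the fibroblast marker SPARC was at 0.52, 0.59 and 0.94 FPKM in IVF, 50.6, 29.5 and 23.6 in SCNT and 10.4 and 53.3 in KDM4E-SCNT. SPARC was chosen after its values were seen. Of the 12 fibroblast markers tested, 5 were lower and 1, FN1, was higher in IVF than in SCNT, and 2 were higher and 1, PDGFRA, was lower in KDM4E-SCNT than in SCNT. Their part in the CTSK result was not tested.

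CTSA, CTSD and CTSS, at up to 1.88, 3.52 and 1.43 FPKM, were tested and called in no comparison, and CTSF and CTSW did not pass the filter. CTSD, the aspartic protease usually prominent in lysosomes, was listed at 0 in SCNT replicates 1 and 3. Cathepsins are held in check by cystatins. Of the 4 cystatins looked for, all were found in 5 rows. For IVF minus SCNT and KDM4E-SCNT minus SCNT, 58.5% and 32.6% of all features were called. Of the 5 rows, 1 was called, higher than SCNT in both other groups. That row, a form of CSTB (stefin B, ENSBTAG00000000524.2), was at 280.2, 516 and 407 FPKM in the IVF libraries, 57.3, 73.2 and 80.1 in the SCNT libraries and 342 and 489 in the KDM4E-SCNT libraries. Its log2 difference was 2.47 (SE 0.29, adjusted p 2.21e-05) for IVF minus SCNT and 2.54 (SE 0.33, adjusted p 0.000655) for KDM4E-SCNT minus SCNT. The other CSTB row was at most 6.04 FPKM and reads may be shared between the 2 rows.

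**Figure D3:**
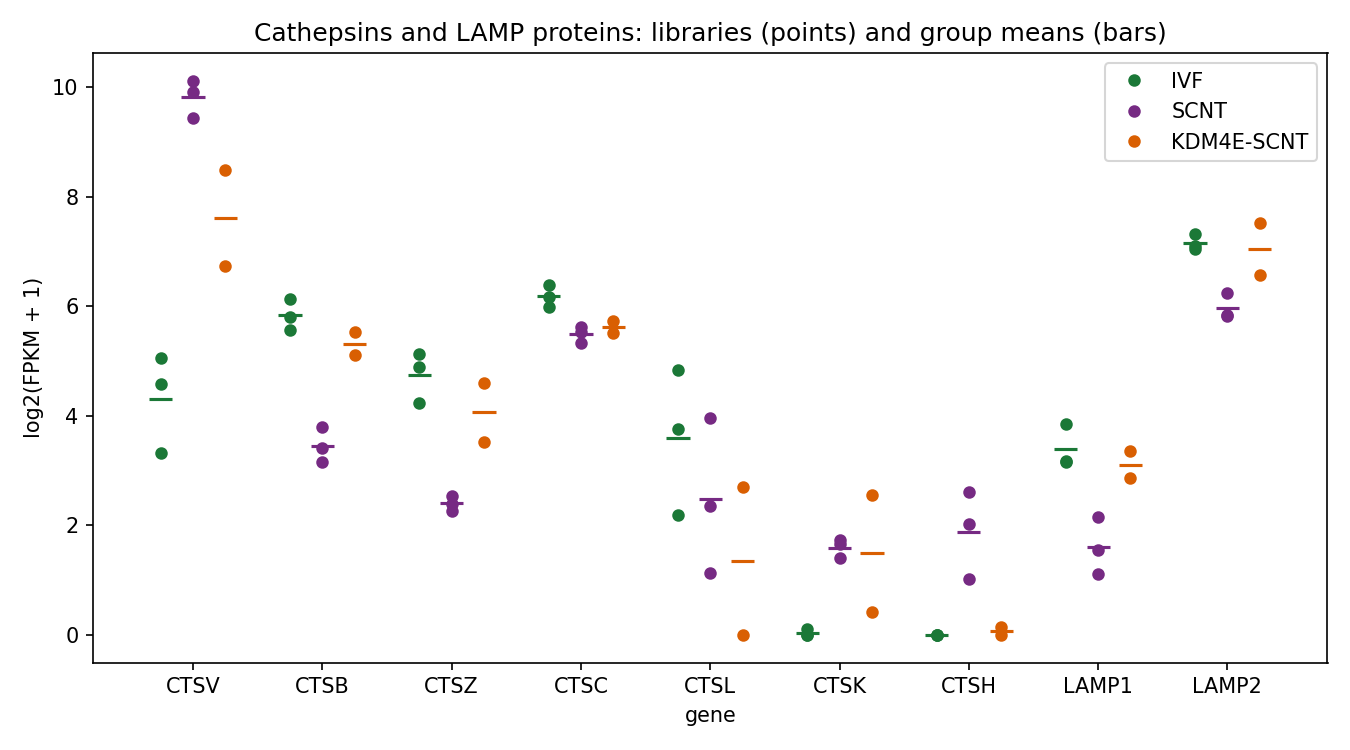
log2(FPKM + 1) of 7 cathepsins and 2 LAMP proteins, with 1 point per library and a bar at each group's mean (IVF n = 3, SCNT n = 3, KDM4E-SCNT n = 2). CTSV is highest in SCNT, while CTSB, CTSZ, LAMP1 and LAMP2 are lowest there.

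Most called ATG genes were lower in IVF than in SCNT. Of 13 tested, 6 were lower, 1 was higher and 6 were not called, with a median log2 difference of -0.70. The share called was 53.8%, beside 58.5% of all features, and for KDM4E-SCNT minus SCNT it was 15.4% beside 32.6%. For KDM4E-SCNT minus SCNT, 2 were lower and 11 were not called (3 lower and 0 higher at an unadjusted p under 0.05), with a median of -0.51, and for KDM4E-SCNT minus IVF none was called (4 higher and 1 lower at an unadjusted p under 0.05). The split for IVF minus SCNT was 0 higher and 9 lower with median-ratio size factors and 1 and 5 with 1 total per library. The sum over all 17 ATG rows was 191 to 227 FPKM in IVF, 539.7 to 616 in SCNT and 404 and 231 in KDM4E-SCNT.

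ATG12, the ubiquitin-like protein that is joined to ATG5, had the highest mean of them (chr10:4619383-4799774). ATG12 was at 57.2, 64.5 and 67.0 FPKM in the IVF libraries, 318, 281 and 302 in the SCNT libraries and 171 and 77.7 in the KDM4E-SCNT libraries. The groups did not overlap, with SCNT highest and KDM4E-SCNT between. It was lower than SCNT in IVF, -2.24 log2 units (SE 0.30, adjusted p 5.46e-05), and in KDM4E-SCNT, -1.37 (SE 0.34, adjusted p 0.00914), the latter at -0.81 and not called without KDM4E-SCNT replicate 2 (adjusted p 0.00288 to 0.114 over 14 settings). The row spans 180392 bp in the files, 8.09 times the RefSeq gene of assembly ARS-UCD2.0, overlaps LVRN and 2 unannotated loci, and is described partly as cysteine dioxygenase, so its reads may not all come from ATG12. Its conjugation partner ATG5 ranged from 36.5 to 69.4 FPKM over all libraries and was called in no comparison, with an IVF minus SCNT difference of -0.26 (95% interval -0.86 to 0.33).

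The ATG4 proteases cut LC3 and its relatives before conjugation and free them afterwards, and the 4 family members did not move together. ATG4C (chr3:83298919-83395090) was at 1.65, 6.48 and 2.04 FPKM in the IVF libraries, 38.9, 24.5 and 40.5 in the SCNT libraries and 11.5 and 9.08 in the KDM4E-SCNT libraries. It was lower than SCNT in IVF, -3.15 log2 units (SE 0.41, adjusted p 4.35e-05), and in KDM4E-SCNT, -1.64 (SE 0.46, adjusted p 0.017), and the latter was lost without SCNT replicate 1, SCNT replicate 3 or KDM4E-SCNT replicate 2 (adjusted p 0.00596 to 0.122 over 14 settings). ATG4D, which overlaps KRI1, was also lower in IVF than in SCNT, -1.79 log2 units (SE 0.34, adjusted p 0.000653). The X-linked ATG4A was at 13.0, 5.51 and 14.5 FPKM in the IVF libraries, 4.32, 4.39 and 2.30 in the SCNT libraries and 4.52 and 5.02 in the KDM4E-SCNT libraries, the 1 ATG gene called higher in IVF, 1.30 log2 units (SE 0.39, adjusted p 0.0127), a call lost with median-ratio size factors and without IVF replicate 3 or SCNT replicate 3 (adjusted p 0.00232 to 0.0617 over 15 settings). The ATG4A row spans 77414 bp in the files, 2.33 times the RefSeq gene of assembly ARS-UCD2.0, and overlaps no other feature. ATG4B, at up to 2.05 FPKM, was called in no comparison.

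Among the other steps of the pathway, ATG14, which directs the lipid kinase complex to sites of autophagosome formation, was lower in IVF than in SCNT, -1.43 log2 units (SE 0.34, adjusted p 0.00314). ATG3, the conjugating enzyme for LC3, was lower as well, -1.16 log2 units (SE 0.29, adjusted p 0.00416), and both calls held under every setting run. ATG101 of the ULK1 initiation complex was called lower, -0.98 log2 units (SE 0.38, adjusted p 0.0417), but the call was lost in 8 settings among them IVF replicates 2 and 3 and each SCNT replicate left out in turn, and the difference was -0.55 without IVF replicate 2 (adjusted p 0.00662 to 0.163 over 15 settings). ATG13 of the same complex, ATG2B, ATG7 and ATG16L1 were called in no comparison, with levels from 1.13 to 10.3 FPKM. ATG10, ATG16L2, ATG9A and ATG9B did not pass the filter and reached at most 1.03 FPKM. ATG9A, the lipid scramblase carried to the growing membrane in vesicles, was at 0.03 to 0.86 FPKM.

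The LC3 proteins on which the ATG enzymes act, and other autophagy genes, were called in both directions. Of 30 autophagy genes not named ATG, 29 were found and 27 were tested, and 7 were higher and 10 lower in IVF than in SCNT, with a median of -0.45. Over all features tested, 34.9% were higher and 23.6% lower. MAP1LC3B, the LC3 protein that marks autophagosomes, was at 33.8, 53.1 and 59.2 FPKM in the IVF libraries, 713, 681 and 637 in the SCNT libraries and 255 and 177 in the KDM4E-SCNT libraries. The groups did not overlap. MAP1LC3B was lower than SCNT in IVF, -3.81 log2 units (SE 0.28, adjusted p 9.77e-07), and in KDM4E-SCNT, -1.67 (SE 0.31, adjusted p 0.00262), and higher in KDM4E-SCNT than in IVF, 2.14 (SE 0.31, adjusted p 0.00147). VMP1, a scramblase of the endoplasmic reticulum, and GABARAPL1, a relative of LC3, showed the same 3 calls, with IVF minus SCNT differences of -4.85 and -3.23. VAMP8, a fusion protein (SNARE) of the lysosomal side, was lower than SCNT in IVF, -2.92 log2 units (SE 0.29, adjusted p 5.98e-06), and in KDM4E-SCNT, -2.42 (SE 0.32, adjusted p 0.000702). STX17, the SNARE on the autophagosome that pairs with it, was higher than SCNT in IVF, 2.56 log2 units (SE 0.32, adjusted p 3.6e-05), and in KDM4E-SCNT, 1.88 (SE 0.36, adjusted p 0.00291), and was singled out after its values were seen. GABARAP, GABARAPL2, BECN1 and the cargo receptor SQSTM1 were not called for IVF minus SCNT, with differences of -0.40, -0.45, 0.28 and -0.49. The split of the list was 6 higher and 15 lower with median-ratio size factors. In KDM4E-SCNT, 4 of the 27 were higher than in SCNT and 6 lower, beside 21.6% and 11% of all features.

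Lysosomal hydrolases other than cathepsins were called in both directions as well. Of 35 listed, 32 were found and 22 tested, and 9 were higher and 8 lower in IVF than in SCNT, with a median of 0.28 that was -0.06 with median-ratio size factors and with quantile normalization. Over all features tested, 34.9% were higher and 23.6% lower. GLA, which removes galactose from glycolipids, was at 2.62, 1.76 and 5.21 FPKM in IVF, 47.4, 44.0 and 46.6 in SCNT and 19.0 and 11.8 in KDM4E-SCNT, and was lower in IVF, -3.57 log2 units (SE 0.35, adjusted p 6.34e-06). FUCA1, which removes fucose, was lower in IVF by -3.27 log2 units (SE 0.35, adjusted p 1.01e-05). In the other direction, the lipid hydrolase LIPA was at 46.7, 23.7 and 28.6 FPKM in IVF, 2.02, 3.37 and 2.87 in SCNT and 10.8 and 21.4 in KDM4E-SCNT, and was higher in IVF, 3.14 log2 units (SE 0.37, adjusted p 2.02e-05). All 3 were called against SCNT in KDM4E-SCNT too, with differences of -1.55, -2.06 and 2.13 in that order, and that comparison shares the SCNT libraries with the first.

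Of 15 lysosomal membrane proteins other than LAMP, 12 were tested, and 5 were higher and 1 lower in IVF than in SCNT, the same split under the 3 other scalings. Of all features tested, 34.9% were higher and 23.6% lower, so the rate of calls in this list was not above that of all features. The sialic acid transporter SLC17A5 was higher by 3.14 (SE 0.40, adjusted p 3.79e-05) and TMEM192 by 2.07 (SE 0.31, adjusted p 0.000119), while LAPTM4A was lower by a log2 difference of -2.13 (SE 0.33, adjusted p 0.00014). Between KDM4E-SCNT and SCNT, 3 were higher and 1 lower in the former, beside 21.6% and 11% of all features. Of 9 genes that sort enzymes to lysosomes, all tested, 1 was higher and 4 lower in IVF, beside the same 34.9% and 23.6% of all features. GNPTG, a subunit of the enzyme that makes the mannose 6-phosphate tag, and NAGPA, which uncovers the tag, were lower by log2 differences of -1.65 (SE 0.42, adjusted p 0.00496) and -1.20 (SE 0.35, adjusted p 0.0109). The tag's receptor IGF2R was lower too, -1.48 log2 units (SE 0.47, adjusted p 0.0155), and the sorting receptor SORT1 was higher, 1.35 (SE 0.38, adjusted p 0.00837). IGF2R reached 1 FPKM in SCNT libraries alone and passed the filter only through them. Its call, 1 of the 4 lower, carries no weight of its own. Of the 9 genes, GNPTG was lower and SORT1 higher in KDM4E-SCNT than in SCNT, and the other 7 were not called there. Of all features, 21.6% were higher and 11% lower in that comparison. The split of the 9 genes there was 0 higher and 4 lower with median-ratio size factors.

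Proteins that assemble the V-ATPase and partners of it were fewer in number: 8 of 10 listed were found and 7 tested, with 0 higher and 4 lower in IVF than in SCNT under all 4 scalings. Over all features tested, 34.9% were higher and 23.6% lower, and 58.5% were called. TMEM199 and CCDC115, which form an assembly complex for V0 in the endoplasmic reticulum, were lower by log2 differences of -3.75 (SE 0.47, adjusted p 3.44e-05) and -1.42 (SE 0.41, adjusted p 0.0101). TMEM199 was at 0, 0.15 and 1.22 FPKM in the IVF libraries, 17.1, 12.9 and 23.9 in the SCNT libraries and 12.7 and 3.23 in the KDM4E-SCNT libraries, and was also higher in KDM4E-SCNT than in IVF, 2.48 log2 units (SE 0.53, adjusted p 0.0126). NCOA7 and OXR1, V-ATPase-binding proteins of the TLDc family, were lower by log2 differences of -1.28 (SE 0.37, adjusted p 0.0107) and -1.37 (SE 0.41, adjusted p 0.0118). NCOA7 reached 1 FPKM in SCNT libraries alone and passed the filter only through them. Its call, 1 of the 4 lower, carries no weight of its own. Between KDM4E-SCNT and SCNT, none of the 7 was called by limma (0 higher and 1 lower at an unadjusted p under 0.05), beside 32.6% of all features. With median-ratio size factors or quantile normalization, 3 of the 7 were called lower.

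Nutrient sensing at the lysosome, where Rag GTPases and the Ragulator complex recruit MTOR, also held calls in both directions. Of 22 listed genes, 20 were tested, and 7 were higher and 7 lower in IVF than in SCNT, a split that became 10 and 4 with 1 total per library. Over all features tested, 34.9% were higher and 23.6% lower. The Rag GTPases RRAGD and RRAGC were higher by 2.53 (SE 0.29, adjusted p 1.89e-05) and 2.05 (SE 0.33, adjusted p 0.000195), while RRAGB was lower by a log2 difference of -3.36 (SE 0.42, adjusted p 3.02e-05). LAMTOR4 of Ragulator was lower as well, -2.32 log2 units (SE 0.36, adjusted p 0.000156). TFEB, the transcription factor best known for switching on lysosomal genes, was at most 0.58 FPKM and was not tested. Its relative TFE3 was at 26.8, 44.9 and 37.0 FPKM in the IVF libraries, 4.84, 18.3 and 5.04 in the SCNT libraries and 27.0 and 31.8 in the KDM4E-SCNT libraries, higher than SCNT in IVF, 2.05 log2 units (SE 0.43, adjusted p 0.00142), and in KDM4E-SCNT, 1.78 (SE 0.48, adjusted p 0.0147). TFE3 and TFEB were named for their known role and fall outside the rule for named genes. In KDM4E-SCNT, 5 of the 20 were higher than in SCNT and 2 lower, beside 21.6% and 11% of all features.

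**Figure D4:**
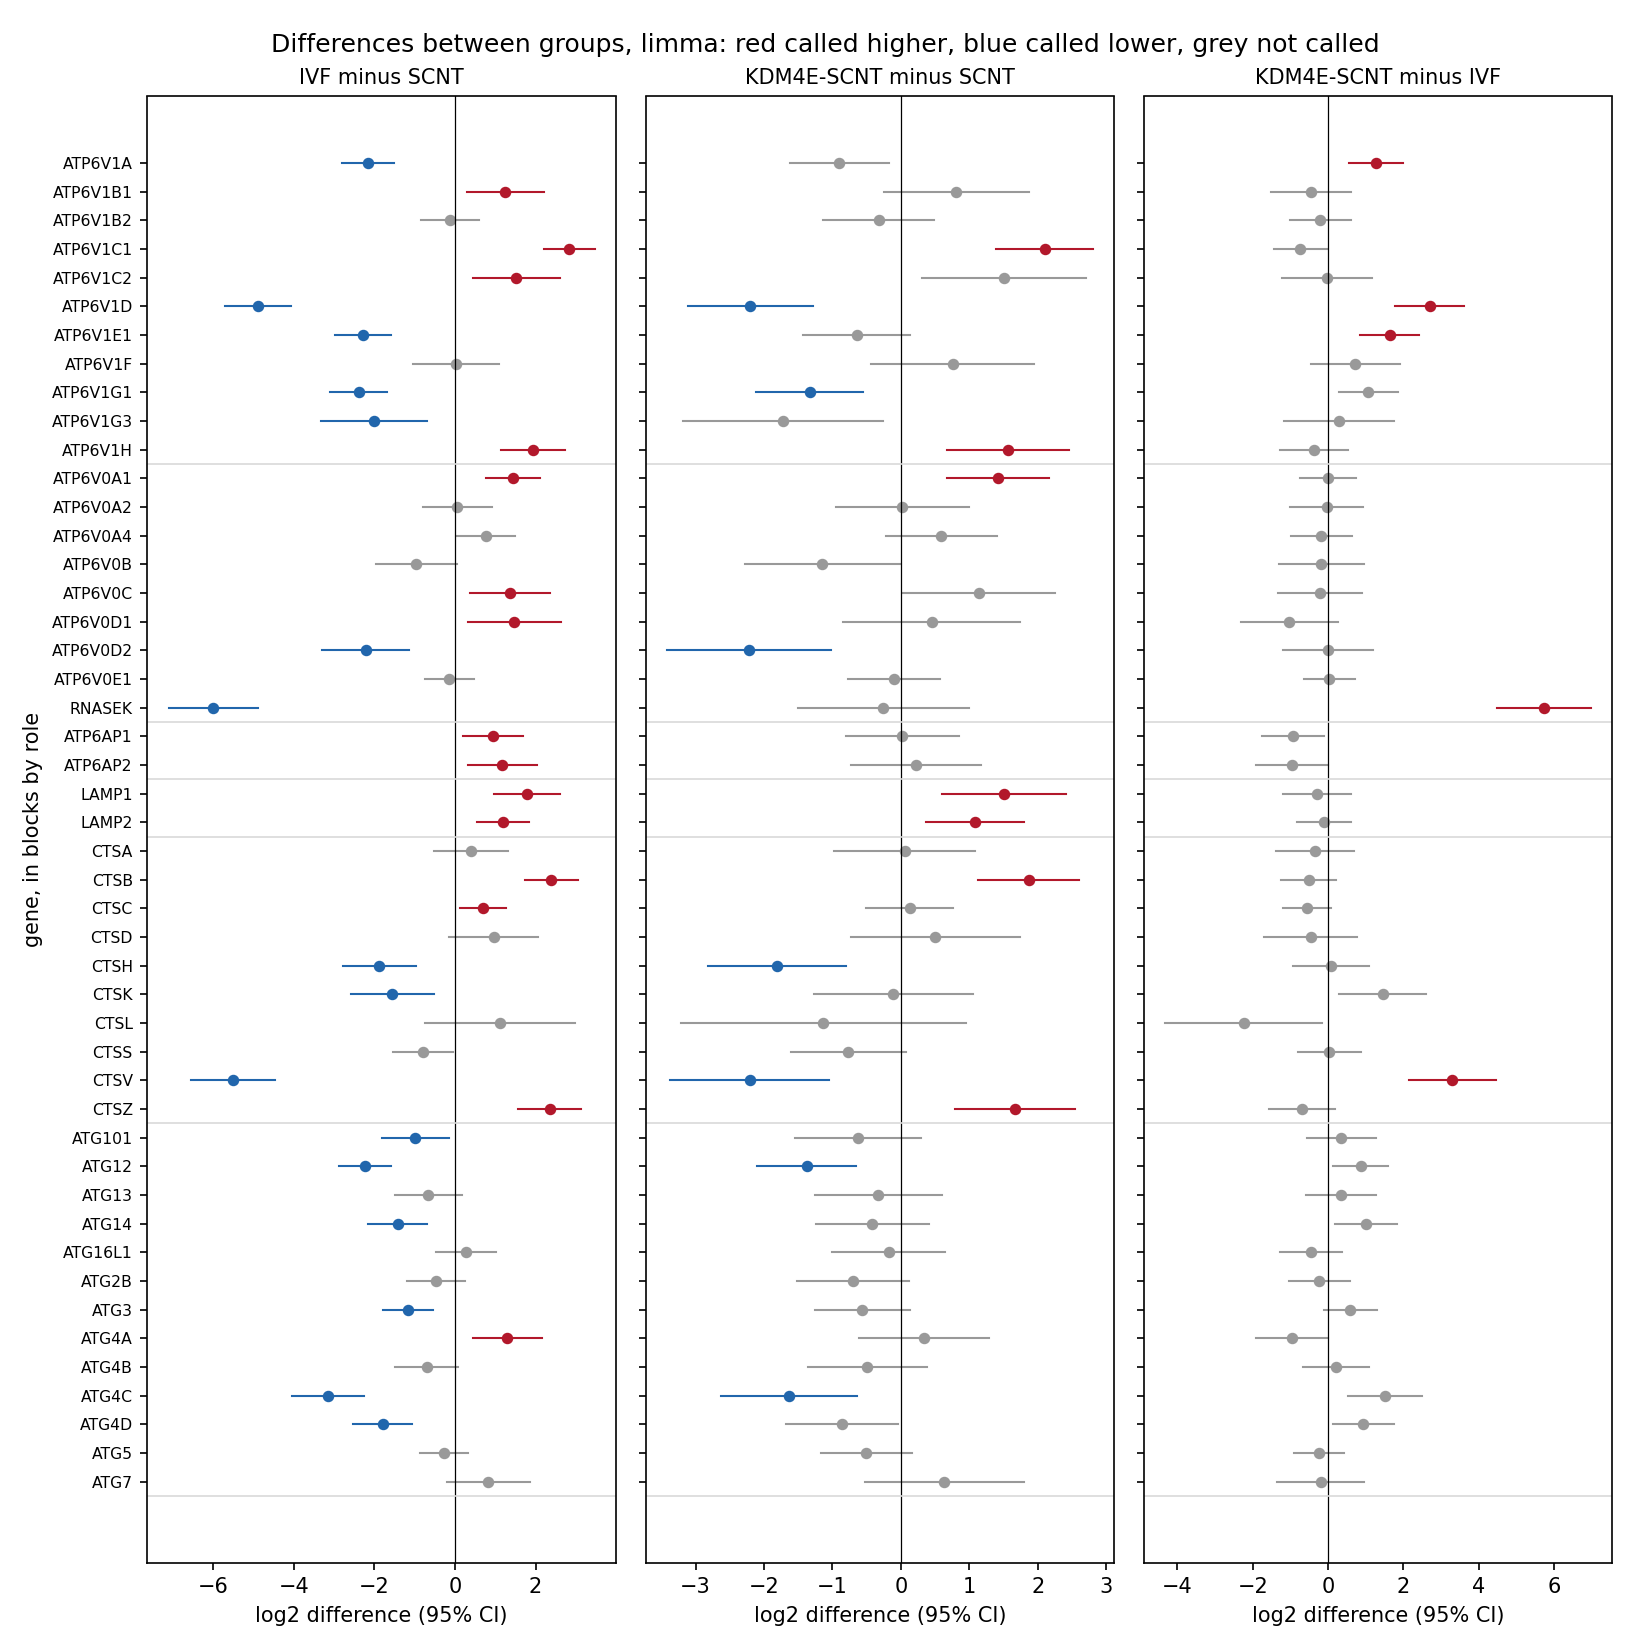
log2 difference with its 95% confidence interval (limma, on log2(FPKM + 1)) for the 47 tested genes in the 3 comparisons, each panel with its own scale. Genes called higher are red, those called lower blue and those not called grey. The plotted size for ATP6V0D2, ATP6V1G3 and CTSH, listed at 0 throughout a group, depends on the pseudocount. Subunits of the V-ATPase fall on both sides of 0 for IVF minus SCNT, and 5 genes are called for KDM4E-SCNT minus IVF.

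In KDM4E-SCNT embryos, then, 14 of the 47 genes were called against SCNT, 29.8% beside 32.6% of all features, and 5 against IVF, 10.6% beside 6.52% of all features. Those 5 were RNASEK, CTSV, ATP6V1D, ATP6V1E1 and ATP6V1A, all higher than in IVF, and RNASEK and ATP6V1D were called so under every setting run. Without KDM4E-SCNT replicate 1 the count was 3, without IVF replicate 1 it was also 3, and without KDM4E-SCNT replicate 2 it was 8. Among genes called against SCNT, the 95% interval for the difference from IVF was -1.44 to -0.03 for ATP6V1C1, -1.25 to 0.21 for CTSB, -0.83 to 0.61 for LAMP2 and -0.75 to 0.74 for ATP6V0A1. The absence of a call against IVF in these 4 genes therefore leaves differences of that size within the interval.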

How the data were processed

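Total RNA of 8 pools was read as cDNA that had been tailed and amplified before library construction, per the labels' protocols. Per the submitters' processing notes, RSEM 1.2.12, Bowtie2 2.2.5, StringTie 1.0.4, HISAT 0.1.6 and bcl2fastq 2.16 were used with build UMD3.1, and the step each served is not given in the sources used here. The authors deposited FPKM per feature, to 2 decimals, per the file headers, so no count test could be run and depth and strand are not given. Unequal tailing or amplification between pools would enter these values.

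Values were analysed as log2(FPKM + 1), which understates changes of low genes. Features at 1 FPKM in at least 2 libraries (14839, with 6419 set aside) entered 1 fit of all 8 libraries by limma 3.58.1 (R 4.3.3; trend and robust moderation), with two-sided p adjusted by Benjamini-Hochberg within each comparison. Errors are standard errors of log2 differences. The fit was checked on simulated data. Alternatives were quantile, median-ratio and 1-total scaling, a pseudocount of 0.1, no filter or a minimum of 5 FPKM, no trend, a replicate block, only the groups compared, and each library left out.

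Values per library are given for RNASEK, the 10 largest called differences per comparison with no overlap and at least 5 FPKM in 2 libraries, the most abundant gene of each role, and paralogue pairs called in opposite directions. Up to 4 genes per pathway list with the smallest p are named, apart from some that are not reported here. Other genes named with values were chosen after those were seen. The genes and lists were chosen with earlier results of these data known. RefSeq spans are from assembly ARS-UCD2.0.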

Additional observations from a re-analysis of the deposited data

How the results depend on the processing

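The count of genes called higher in IVF than in SCNT was 8 with median-ratio size factors, and between 9 and 15 when 1 library was left out, with 14 to 16 called lower. For KDM4E-SCNT minus SCNT, 11 were called lower with quantile normalization and 15 with median-ratio size factors, and leaving out 1 library gave 3 to 7 higher and 1 to 9 lower. For KDM4E-SCNT minus IVF, leaving out 1 library gave 3 to 8 higher and 0 to 1 lower. With the replicate number as a block, 1 of the genes was called lower in KDM4E-SCNT than in IVF in place of 0, and no other count of calls among these genes changed. Over all features the block took the calls from 4844 to 4252 for KDM4E-SCNT minus SCNT. They went from 8680 to 8656 for IVF minus SCNT and from 967 to 957 for KDM4E-SCNT minus IVF. Deviations of same-numbered libraries from their group means correlated at 0.006 to 0.123, and those of differently numbered libraries at -0.134 to 0.134. Within groups of so few libraries the deviations are tied to each other, so this check cannot exclude pairing. The main fit did not take the numbers to pair samples. The call was kept under every setting run by 22 of 31 genes called for IVF minus SCNT, by 4 of 14 called for KDM4E-SCNT against SCNT and by 2 of 5 called for KDM4E-SCNT against IVF, and none reversed. Genes set aside by the stricter filter have no value there. Where a group was left with 1 library, that library is assumed to vary like the others. A planned search of promoters for a motif was not run. The cause of these shifts was not tested. FPKM gives no depth, so the precision of values near 0, such as those of RNASEK in IVF, is unknown.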
